A study of Bos taurus with 2 samples.

Results

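The nuclei described here were chosen by measured values: they are the hypoblast-gated nuclei of day-8 bovine blastocysts in which NID1, COL18A1 and GATA4 together gave at least as many transcripts as KIT, VWF and A2M. They number 128 of the 693 blastocyst barcodes that passed the filters, 18.5% (exact 95% interval 15.6 to 21.6), of 944 blastocyst barcodes in all and of 2901 in the series. The series holds 2 single-nucleus libraries, each labelled wild type: 1 of blastocysts at day 8, and 1 of blastocyst-like structures called 3L blastoids, assembled from bovine expanded potential (bEPSC), trophoblast (bTSC) and extraembryonic endoderm (bXEN) stem cell lines. Nuclei came from frozen material and were sequenced with the 10x 3' v3.1 chemistry. The labels do not say how many embryos were pooled, and the nuclei carry no embryo of origin. With 1 library a group, no difference below has a replicate check, and each 95% interval covers counting error only.

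A nucleus was kept when it held at least 4000 unique molecular identifiers (UMIs, each standing for 1 captured transcript), at least 500 genes and under 10% mitochondrial UMIs. It then needed at least 2 UMIs of HNF4A and PDGFRA together, at most 1 of GATA2 and GATA3, and at most 1 of NANOG and PRDM14. Of the 294 nuclei that met this hypoblast gate, 128 (43.5%, 37.8 to 49.4) had GATA4, NID1 and COL18A1 UMIs equal to or above their KIT, VWF and A2M UMIs, and 166 did not. Those 166 are called the KIT/VWF/A2M side. For comparison, 216 nuclei passed a trophectoderm gate (at least 2 UMIs of GATA2 and GATA3 with at most 1 of each other pair), 94 passed an epiblast gate (at least 2 UMIs of NANOG and PRDM14 with at most 1 of GATA2 and GATA3), and 89 passed none. The epiblast gate did not bar HNF4A and PDGFRA, and nuclei in it held HNF4A at 597 and PDGFRA at 312 CPM. CPM here is the UMIs of a gene summed over the nuclei of a class, per 1000000 UMIs of that class.

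The hypoblast, or primitive endoderm, is the epithelium that forms between the epiblast and the blastocoel and later lines the yolk sac. It is known for the transcription factors GATA6, GATA4, SOX17 and HNF4A, for the receptor PDGFRA, and for secreting a basement membrane of type IV collagen, laminin, nidogen and perlecan on which the epiblast rests. FGF signalling from the epiblast drives its formation in mammals, with FGFR2 and FGFR1 as receptors in the mouse. NID1 is the nidogen that links laminin to collagen IV, COL18A1 is a basement membrane collagen with heparan sulfate chains, KIT is a receptor tyrosine kinase, VWF is the clotting factor carrier of endothelium and A2M is a secreted protease inhibitor.

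The 128 nuclei held 1093912 UMIs, from 4275 to 18170 a nucleus with a median of 7869.5, and a median of 3585 genes. The median was 8133 on the KIT/VWF/A2M side, 9026 in trophectoderm-gated and 9868.5 in epiblast-gated nuclei. Mitochondrial transcripts made up a median of 0.46% of UMIs. The blastocyst and blastoid libraries shared 1 barcode, which was not among the 128. Of the 4 filtered barcodes with the highest Scrublet doublet scores, 0 were among the 128.

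The name of the side rests mostly on NID1. The 3 genes gave 1158 UMIs, of which NID1 gave 852 and COL18A1 gave 261. GATA4, the zinc-finger factor of early endoderm, gave 45 UMIs in 27 nuclei, so most of the 128 had none. NID1 ranged from 0 to 32 UMIs a nucleus with a median of 5 and was seen in 112 nuclei, and COL18A1 ranged from 0 to 12 with a median of 1 in 88 nuclei. All 3 genes were seen in 22 nuclei, exactly 2 of them in 62, exactly 1 in 37, and none in 7, which entered because they held no KIT, VWF or A2M UMI either.

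The opposite genes were not absent from these nuclei. A KIT, VWF or A2M UMI was found in 110 of the 128, and KIT alone gave 414 UMIs in 99 nuclei. The margin between the 2 sums ran from 0 to 44 UMIs with a median of 3. Ties made up 21 nuclei, 14 of them with UMIs on both sides, and 21 more exceeded the other side by a single UMI. Just outside, 18 nuclei of the KIT/VWF/A2M side missed by 1 UMI. At the other threshold, 6 of the 128 held exactly 2 UMIs of HNF4A and PDGFRA, and 7 further barcodes passed everything else with 1. The plot of the 2 sums per nucleus shows a continuous cloud across the dividing line. On the summed scale these chosen values were 779 CPM for NID1 against 271 on the KIT/VWF/A2M side, 238.6 against 81.4 for COL18A1, 41.1 against 23.3 for GATA4 and 378 against 875 for KIT. Since the rule used these genes, their differences are a description of the choice.

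**Figure D1:**
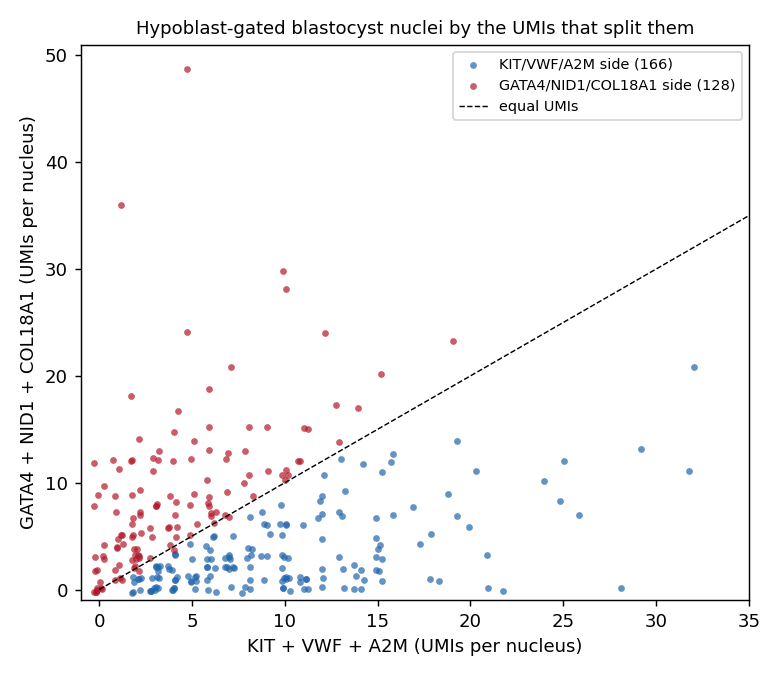
Each point is 1 of 294 hypoblast-gated nuclei, with KIT, VWF and A2M UMIs on the x axis and GATA4, NID1 and COL18A1 UMIs on the y axis; points are jittered by less than 1 UMI and the dashed line marks equal UMIs. The 128 red nuclei reach 49 UMIs on their own axis, and nuclei of both sides meet along the line with no gap.

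Against all 565 other filtered blastocyst barcodes, 7578 genes outside the rule and the mitochondrial mRNAs reached 100 UMIs over both sums. Of these, 87 (1.15%) were at least 2-fold higher in the 128 nuclei and 510 (6.73%) at least 2-fold lower, with a median log2 ratio of 0.03 over all genes. Among the genes with the highest ratios were TSPAN2, a tetraspanin, at 70.4 against 17.7 CPM (3.98-fold, 2.91 to 5.42), UNC5C, a netrin receptor, at 205 against 60.8 (log2 1.75) and FAM217A at 106 against 32.8 (3.23-fold). VSTM4, NOSTRIN, TMEM132D, GRIK4, TRPM6 and ERC2 followed in falling order of ratio, with log2 ratios of at most 1.59. TMEM132D, a transmembrane protein, and ERC2, a scaffold of presynaptic release sites, were abundant: TMEM132D stood at 4470 (4346 to 4597) against 1527 CPM and was seen in 124 of the 128 nuclei, and ERC2 at 1408 against 496 in 118 nuclei.

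The lowest ratios all belonged to genes that were high in trophectoderm-gated nuclei. HSD3B1, a steroid-synthesis enzyme, gave 3 UMIs in the 128 nuclei against 706 in the trophectoderm-gated ones and was 51.2-fold lower than in all others (17.5 to 249). GRHL2, an epithelial transcription factor, gave 3 UMIs against 523 there. DSC2 (a desmosomal cadherin), MACC1, SH3BP5, SLC4A5, ANKH, FYB1, EPAS1 and PLS1 completed the 10, with log2 ratios from -4.62 to -4.05. More genes were thus 2-fold lower than 2-fold higher against the rest of the library.

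Among hypoblast regulators, 8 of 17 genes outside the rule could be measured, and 2 of them, ID2 included, were at least 2-fold higher than in all other barcodes and none lower, beside 1.15% and 6.73% of all genes tested, with a median log2 ratio of 0.41. ID2, an inhibitor of bHLH factors, stood at 33.8 against 15.9 (2.13-fold, 1.41 to 3.16). GATA6, which acts at the top of the hypoblast programme, gave 965 CPM (908 to 1025), against 949 on the KIT/VWF/A2M side, 862 in epiblast-gated and 556 in trophectoderm-gated nuclei, so it was close in the hypoblast and epiblast-gated nuclei and lower in the trophectoderm-gated ones. OTX2, a homeobox factor of epiblast and anterior endoderm, stood at 112 against 3.97 in trophectoderm-gated nuclei and 98.4 in epiblast-gated ones.

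SOX17, the Sox factor of definitive and extraembryonic endoderm, was too sparse for the counts. It gave 21 UMIs in 15 of the 128 nuclei, 8 UMIs in 7 nuclei of the KIT/VWF/A2M side, 8 in epiblast-gated nuclei and 0 of 2266235 UMIs in trophectoderm-gated nuclei, or 19.2 (11.9 to 29.3) against 5.47 (2.36 to 10.8) CPM on the 2 hypoblast sides and 8.20 in epiblast-gated nuclei. Without the nuclei of the 128 that held JAM2, described further down, it stood at 14.2 (7.78 to 23.9). That interval overlaps the one of the KIT/VWF/A2M side, and the log2 ratio over that side was then 1.38. FOXA2 gave 2 UMIs, SOX7 gave 1, and EOMES, FOXA1, HHEX and LHX1 gave 0. At 1093912 UMIs a count of 0 allows a level of up to 3.37 CPM.

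**Figure D2:**
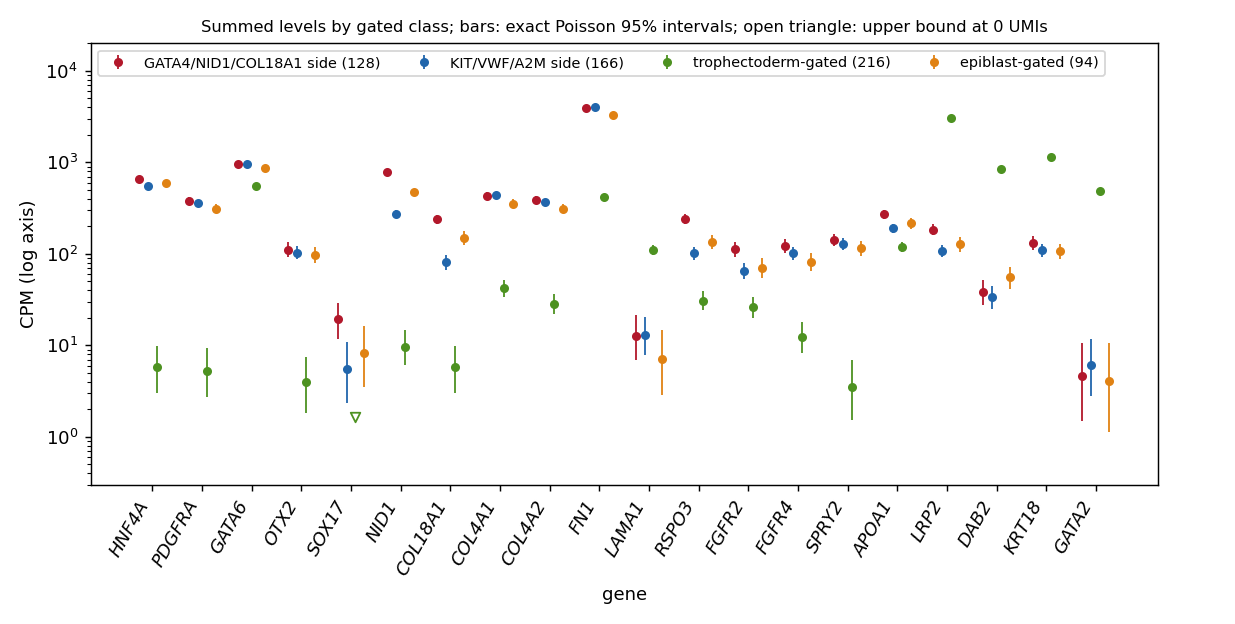
Summed levels of 20 genes in CPM (log y axis) for the 4 gated classes, with exact Poisson 95% intervals as bars and an open triangle as the upper bound where a class has 0 UMIs. The red and blue points of the 2 hypoblast sides lie close together for GATA6, COL4A1, COL4A2 and FN1 and apart for RSPO3, as they do by the choice of nuclei for the rule genes NID1 and COL18A1, and the trophectoderm-gated nuclei stand apart from both for most genes.

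Among basement membrane genes outside the rule, COL4A1, COL4A2 and FN1 were well above their level in trophectoderm-gated nuclei and close to that of the KIT/VWF/A2M side, and the laminins were not. The list summed to 5480 CPM, against 5404 on the KIT/VWF/A2M side and 1258 in trophectoderm-gated nuclei. It was also high in epiblast-gated nuclei at 4547 and in the ungated ones at 3837, so a high sum was not particular to the hypoblast gate. Of 16 measured genes, 1 (COL4A2) was at least 2-fold higher than in all other barcodes and 2 (FREM1, LAMA1) at least 2-fold lower, beside 1.15% and 6.73% of all genes tested and so near that background, with a median log2 ratio of 0.13. The collagen IV chains stood at 431 (COL4A1) and 387 (COL4A2) CPM, against 41.9 and 28.7 in trophectoderm-gated nuclei, and were seen in 113 and 112 of the 128 nuclei. FN1, the fibronectin that cells bind through integrins, was found in all 128 at 3976 (3858 to 4096), against 416 in trophectoderm-gated nuclei. On the KIT/VWF/A2M side the 3 genes stood at 439.7, 368 and 4000 CPM, ratios of 0.979, 1.05 and 0.994. The laminin chains did not follow the collagens: LAMA1 stood at 12.8 against 111 in trophectoderm-gated nuclei, LAMB1 at 147 against 183, and LAMC1 at 80.4 against 82.1. NID2, the second nidogen, gave 16 UMIs and stood at 14.6 against 14.4 on the KIT/VWF/A2M side. Of 9 genes of the list measured against the KIT/VWF/A2M side, 0 differed 2-fold.

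Matrix receptors gave 11 measured genes against all others, with 0 at least 2-fold higher and 2 lower, beside 1.15% and 6.73% of all genes tested. The 2 lower genes were DAG1, the dystroglycan receptor of laminin, at 48.4 CPM against 288 in trophectoderm-gated nuclei, and BCAM, a laminin receptor of the immunoglobulin family, at 19.2 against 78.1. ITGB1, the common integrin beta chain, was near the others at 125 against 143. The collagen hydroxylases and other matrix processing genes had 0 of 11 past 2-fold in either direction.

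Among FGF pathway genes, FGFR2, FGFR4 and SPRY2 were higher than in the rest of the library. Of 11 measured genes, 3 were at least 2-fold higher and 0 lower, beside 1.15% and 6.73% of all genes tested, with a median log2 ratio of 0.52: the receptors FGFR2 (112 against 45.3 CPM, 2.48-fold, 1.98 to 3.09) and FGFR4 (123 against 55.9, 2.21-fold, 1.79 to 2.71), and SPRY2, an inhibitor induced by receptor signalling (143 against 66.2, 2.15-fold, 1.77 to 2.60). FGFR1 gave 3 UMIs. The ligand FGF4 gave 1 UMI and SPRY1 gave 0. SPRED1, another inhibitor of the Ras pathway, ran the other way at 136 against 406 in trophectoderm-gated nuclei. The list summed to 1262 CPM against 1284 in epiblast-gated and 870.2 in trophectoderm-gated nuclei. Against the KIT/VWF/A2M side, 0 of 8 measured genes were past 2-fold. FGFR2 stood at 112 (93.4 to 134) against 65.0 (52.6 to 79.4) there and FGFR4 at 123 against 102. Without the 11 nuclei that held JAM2, described further down, FGFR2 stood at 95.6 (77.3 to 117).

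RSPO3, a secreted amplifier of WNT signalling that acts through LGR receptors and the ligases ZNRF3 and RNF43, was the member of the WNT list that stood out. The 128 nuclei gave 263 UMIs in 76 nuclei, or 240.4 CPM (212 to 271), with at most 7.6% of the UMIs from 1 nucleus. It stood at 101 (85.6 to 119) on the KIT/VWF/A2M side, 134 in epiblast-gated, 152 in the ungated and 30.9 in trophectoderm-gated nuclei. After every nucleus was thinned to 4000 UMIs, 46.9% (38.0 to 55.9) of the 128 nuclei held RSPO3, against 24.7% (18.3 to 32.0) of the KIT/VWF/A2M side and 6.02% (3.24 to 10.1) of trophectoderm-gated nuclei; unthinned, the shares were 59.4%, 36.7% and 11.6%. RSPO3 was proposed as a marker with these data known, so its ratio is a description.

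The rest of the WNT list was quieter. Of 13 measured genes, RSPO3 alone was past 2-fold against all others, where 1.15% of all genes tested were higher and 6.73% lower. Of 9 measured against the KIT/VWF/A2M side, it was again RSPO3 alone, with a median log2 ratio of -0.03. There 0.402% of all genes tested were higher and 0.55% lower. The receptor LGR4 stood at 83.2 against 80.0 CPM on the KIT/VWF/A2M side and ZNRF3 at 366 against 373. LGR5, with 23 UMIs in 11 nuclei, stood at 21.0 (13.3 to 31.6) against 10.9 (6.25 to 17.8). AXIN2, a target of WNT signalling, stood at 38.4 against 38.3, and LEF1 gave 7 UMIs. RSPO1, RSPO4, WNT3, WNT11 and NOTUM gave 0.

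Genes of the TGF-beta, BMP and Nodal pathways showed 1 of 19 (ID2) at least 2-fold higher than in all others and 2 lower, beside 1.15% and 6.73% of all genes tested. The 2 lower genes were the co-receptor TGFBR3 at 16.5 against 98.8 CPM in trophectoderm-gated nuclei and the BMP receptor BMPR1B at 12.8 against 36.6. None of 13 was past 2-fold against the KIT/VWF/A2M side. SMAD1, which carries the BMP signal, stood at 80.4 (64.5 to 99.1) against 131 (113 to 151) on that side, and VEGFA, the endothelial growth factor, at 42.1 (30.8 to 56.1) against 72.5 (59.4 to 87.7). NODAL gave 3 UMIs, BMP2 and BMP4 gave 11 each, and CER1 and NOG gave 0.

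Markers of a mature visceral endoderm were mostly sparse, with only 3 of the list measured. Of these, 0 were at least 2-fold higher than in all others and 2 lower, beside 1.15% and 6.73% of all genes tested. The list summed to 626 CPM (580.2 to 675) against 419 (387 to 454) on the KIT/VWF/A2M side and 4075 in trophectoderm-gated nuclei, with APOA1 and LRP2 giving most of its UMIs here. Of 30 such genes outside the rule, 10 gave no UMI, against 12 on the KIT/VWF/A2M side, among them AFP, TTR, APOB, ALB and SERPINA1, all secreted plasma proteins. APOA1, the main protein of high-density lipoprotein, was the exception among abundant ones at 271 CPM (241 to 303) in 109 nuclei, against 191 (169 to 215) on the KIT/VWF/A2M side and 119 in trophectoderm-gated nuclei. MTTP, which loads lipid onto apolipoproteins, gave 34 UMIs in 21 nuclei, 31.1 (21.5 to 43.4) against 10.9 (6.25 to 17.8) and 0.88 CPM in the same 2 classes. The endocytic receptors were not high here: LRP2 (megalin) stood at 185 against 3089 in trophectoderm-gated nuclei, its adaptor DAB2 at 38.4 against 837, and CUBN (cubilin) gave 6 UMIs. SCARB1, a receptor for high-density lipoprotein, had the opposite order with 184 against 6.62, and 180.5 on the KIT/VWF/A2M side. Among parietal endoderm genes, which mark the matrix-laying outer yolk sac endoderm in rodents, 1 of 9 measured genes (COL4A2) was at least 2-fold higher than in all others and 2 (LAMA1, KRT19) lower. Of all genes tested, 1.15% were higher and 6.73% lower. COL4A2 and LAMA1 were already counted among the basement membrane genes, and the median log2 ratio of the parietal list was 0.08. Outside NID1 the list summed to 1255 CPM, most of it COL4A1 and COL4A2. It stood at 1226 on the KIT/VWF/A2M side, 1130 in epiblast-gated, 1032 in the ungated and 733 in trophectoderm-gated nuclei. Of the others, TFPI, an inhibitor of blood clotting, stood at 88.7 and SPARC at 43.0, THBD gave 3 UMIs, PLAT and PTH1R gave 1 each and SRGN gave 0.

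Junction and adhesion genes divided into 1 of 27 at least 2-fold higher than in all others and 6 lower, beside 1.15% and 6.73% of all genes tested. The higher gene was CDH2 (N-cadherin) at 176 (152 to 202) CPM in 54 nuclei, against 80.0 (66.2 to 95.9) on the KIT/VWF/A2M side, 195 in epiblast-gated and 2.65 in trophectoderm-gated nuclei. The lower genes included the tight junction and polarity genes CLDN4, TJP3, PALS1, PATJ and PARD3B, each higher in trophectoderm-gated nuclei, such as PATJ at 176 against 826. CDH1 (E-cadherin) stood at 554 against 635 on the KIT/VWF/A2M side and 685 in trophectoderm-gated nuclei.

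None of 27 S-phase genes and none of 33 G2 and M genes was past 2-fold in either direction against all others, with medians of 0.29 and 0.17 on the log2 scale. Ratios were above 1 for 24 of the 27 and 25 of the 33, beside 4011 of all 7578 genes. The summed S-phase list stood at 2648 CPM against 2652 on the KIT/VWF/A2M side, 2759 in epiblast-gated and 1937 in trophectoderm-gated nuclei. The G2 and M list stood at 3800 CPM against 3481, 3832 and 3477 in the same classes, so neither sum set these nuclei above the epiblast-gated ones. Stress and immediate-early genes had 0 of 14 past 2-fold.

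Markers of other cell types were checked in the same nuclei. The epiblast list had 0 of 11 genes past 2-fold against all others, with a median log2 ratio of 0.30. Without NANOG and PRDM14 it summed to 1641 CPM, against 1464 on the KIT/VWF/A2M side, 1850 in epiblast-gated and 1191 in trophectoderm-gated nuclei. SOX2 stood at 36.6 CPM (26.1 to 49.8), against 60.5 in epiblast-gated and 3.53 in trophectoderm-gated nuclei, and 19 of the 128 nuclei held a NANOG and 27 a PRDM14 UMI, the single one that the rule allows. The trophectoderm list had 11 of 16 genes at least 2-fold lower than in all others, beside 6.73% of all genes tested, with a median log2 ratio of -1.71. Without GATA2 and GATA3, the trophectoderm list summed to 718.5 CPM against 708 on the KIT/VWF/A2M side and 4313 in trophectoderm-gated nuclei. KRT18 stood at 132 against 1145 there. Cumulus and granulosa genes summed to 97.8 CPM against 83.4 on the KIT/VWF/A2M side and 188 in trophectoderm-gated nuclei, with 2 of 10 genes, INHA and FOXL2, at 0 and 84 of the 107 UMIs from FSHR. Blood and endothelial genes apart from VWF summed to 43.9 against 58.8 and 108, with 4 of 11 at 0, among them the haemoglobin gene HBB and CD34. CDH5, the cadherin of endothelium, gave 21 of the 48 UMIs of this list, 18 of them in 1 nucleus, against 7 UMIs on the KIT/VWF/A2M side. Fibroblast genes summed to 10.1 against 20.5 and 31.3, with 7 of 13 at 0, among them COL1A2, COL3A1 and DCN. Their part in the results was not tested.

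A single nucleus stood apart in its trophectoderm genes. Its trophectoderm list summed to 5391 CPM, and the next highest nucleus reached 2339. It held 12985 UMIs, was tied between the 2 sides, and passed the hypoblast gate on 2 PDGFRA UMIs with 0 of HNF4A. It gave 30 of the 41 PLS1 UMIs of the 128 nuclei, 15 of the 30 PTGS2 UMIs, 15 of the 42 DAB2 UMIs and 37 of the 202 LRP2 UMIs. Most of the list's UMIs lay in other nuclei, and without it the list still summed to 662 CPM.

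The comparison with the KIT/VWF/A2M side asks how far the 2 hypoblast sides differ beyond the genes that divide them. Of the 4725 genes that reached 100 UMIs over both sides, 19 (0.402%) were at least 2-fold higher in the 128 nuclei and 26 (0.55%) at least 2-fold lower, with a median log2 ratio of -0.01. The plot of all ratios shows the bulk of genes between the 2-fold lines. Most lists had no member past 2-fold; the exceptions were RSPO3, CDH2 and the DNA methyltransferase DNMT3B of the epiblast list. Without the 11 nuclei that held JAM2, described further down, 11 genes were 2-fold higher and 17 lower, with DNMT3B at a log2 ratio of 0.80 and CDH2 at 0.98, little below its 1.13.

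**Figure D3:**
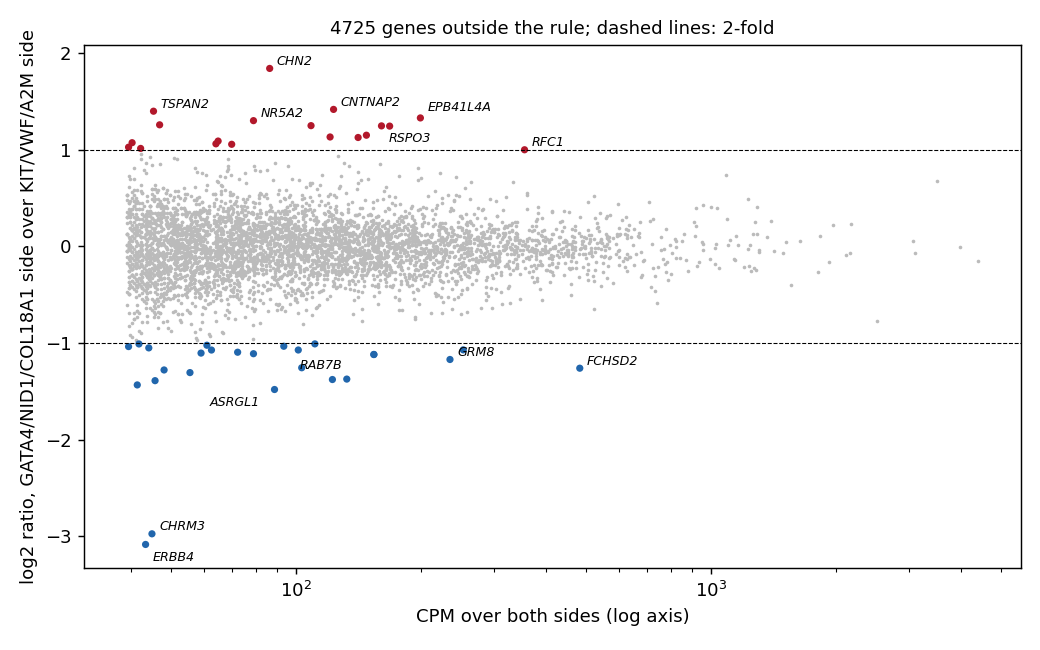
Each point is 1 of 4725 genes outside the rule, with its level over both sides on the x axis (log scale) and the log2 ratio of the GATA4/NID1/COL18A1 side over the KIT/VWF/A2M side on the y axis; dashed lines mark 2-fold. The 19 red genes lie above and the 26 blue genes below, and CHRM3 and ERBB4 sit near -3, each with most of its UMIs in 1 nucleus.

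Among the higher genes, NR5A2, an orphan nuclear receptor of early embryo and endoderm, stood at 120 (100.1 to 142) against 48.6 (37.9 to 61.3) CPM and was seen in 51 of 128 against 36 of 166 nuclei. EPB41L4A, a FERM-domain protein, stood at 304 (273 to 339) against 121 (104 to 140), TSPAN2 at 70.4 against 26.7, and UNC5C at 205 against 93.7. NRG1, a ligand of ERBB receptors, stood at 70.4 (55.6 to 88.0) against 29.4 (21.3 to 39.6), and PLCB1, a phospholipase C, at 251 against 106. DNMT3B stood at 163 (139.7 to 188) against 68.4 (55.6 to 83.2), with 176.5 in trophectoderm-gated nuclei, so its level was not a high one for this library. EPB41L4A and CHN2, a GTPase-activating protein for Rac, were likewise as high or higher in trophectoderm-gated nuclei, at 333 and 185 CPM.

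Single nuclei set some of the ratios. CHN2 had the highest ratio of the comparison at 147 against 41.0 CPM (log2 1.84), with 26.7% of its UMIs in 1 nucleus and a log2 ratio of 1.42 without it. CNTNAP2, a neurexin-like adhesion protein, came next at log2 1.42, but 45.7% of its 210 UMIs lay in 1 nucleus and the log2 ratio was 0.55 without it. On the lower end, ERBB4 and CHRM3 had log2 ratios of -3.08 and -2.97. A single nucleus of the KIT/VWF/A2M side held 79.4% of the ERBB4 and 83.8% of the CHRM3 UMIs there, and without it the ratios were -0.81 and -0.36. RSPO3, EPB41L4A and CDH2 kept log2 ratios of 1.16, 1.22 and 1.01 without their highest nucleus.

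The genes lower than on the KIT/VWF/A2M side included FCHSD2, an F-BAR protein of endocytosis, at 269 (239 to 301) against 644 (603 to 686) CPM, in 74 of 128 against 134 of 166 nuclei. RAB7B, a late endosomal GTPase, stood at 64.0 (49.9 to 80.8) against 166 (146 to 188), ASRGL1, an asparaginase, at 43.9 against 122, and ZAP70, a kinase best known from T cells, at 23.8 against 62.2. The log2 ratio of CHRM3 turned to 0.92 when HNF4A and PDGFRA had to reach 4 UMIs. PECAM1, an adhesion molecule of endothelium like VWF, had too few UMIs to be counted but gave 10 in the 128 nuclei and 50 on the KIT/VWF/A2M side, or 9.14 (4.38 to 16.8) against 34.2 (25.4 to 45.1) CPM, with 87.8 in trophectoderm-gated nuclei; the endothelial cadherin CDH5 ran the other way, with 21 UMIs against 7, but 18 of the 21 lay in 1 nucleus.

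Sorting the 294 hypoblast-gated nuclei by the margin between the 2 sums placed these genes along the values that the rule used. RSPO3, EPB41L4A, RAB7B and FCHSD2 had already been named as differing between the 2 sides of that margin, and the levels of all genes along it are a description. The groups held 74, 58 and 34 nuclei with a KIT/VWF/A2M excess of 6 or more, 3 to 5 and 1 to 2 UMIs, then 21 tied nuclei, then 34, 37 and 36 nuclei with a GATA4/NID1/COL18A1 excess of 1 to 2, 3 to 5 and 6 or more. Their median depths ran from 6345 to 9430.5 UMIs. COL4A1 stayed between 385 and 466 CPM with overlapping intervals in all 7 groups. RSPO3 stood at 96.1, 108 and 103 in the first 3, 234 in the ties, and 197, 143 and 381 in the last 3. Its level in the last group (317 to 455) lay above the interval of every other group except the ties (164.5 to 322).

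TMEM132D stood at 2412 to 2885 CPM in the first 4 groups and 4584, 4494 and 5353 in the last 3. FCHSD2 was higher at the KIT/VWF/A2M end without a graded order: it stood at 699, 649 and 484 in the first 3 groups, 227 in the ties, and 496, 173 and 197 in the last 3. RAB7B stood at 160, 203 and 122 in the first 3 groups and at 94.7, 56.5 and 49.2 in the last 3. EPB41L4A stood at 84.0, 146 and 181 in the first 3 groups, 152 in the ties, and 215, 232 and 529 in the last 3; 9 of the 36 nuclei of the last group held JAM2, and the 11 nuclei with JAM2 gave 96 of the 333 EPB41L4A UMIs of the 128. The tied nuclei, which the rule counts with the 128, lay with the KIT/VWF/A2M side for TMEM132D, and for FCHSD2 they lay below both neighbouring groups. Intervals of the tied group are wide, such as 26.0 to 108 for RAB7B.

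**Figure D4:**
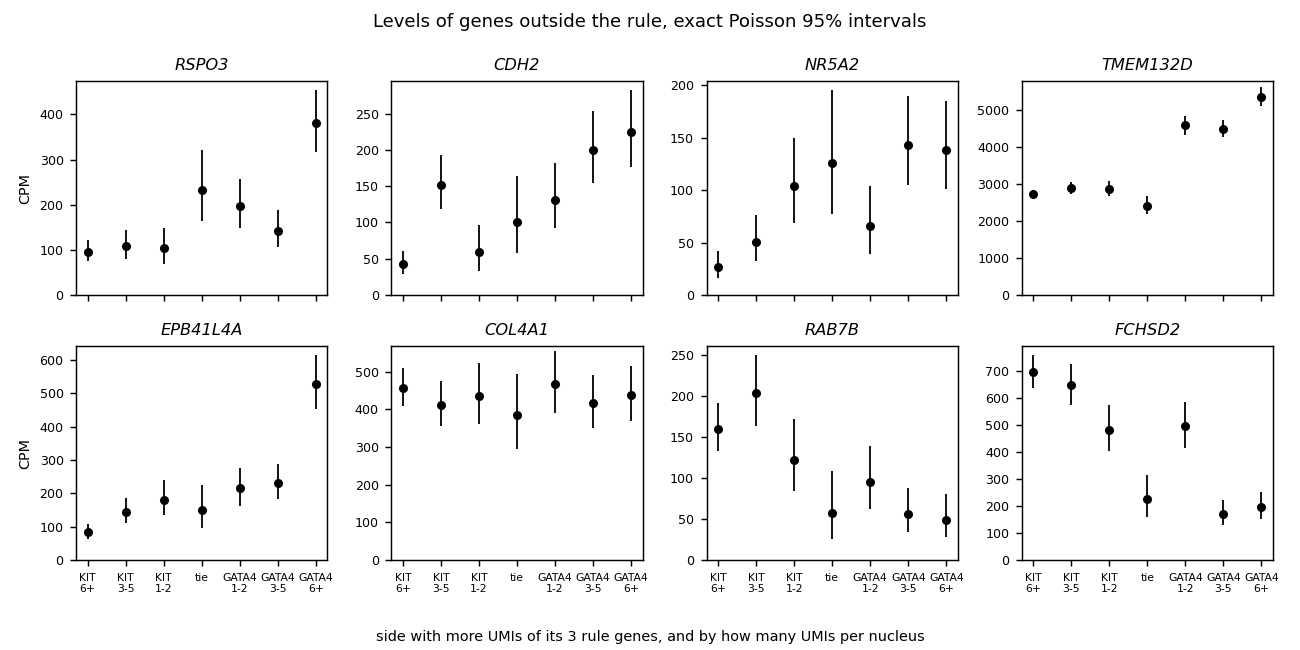
Levels of 8 genes outside the rule in CPM (y axes from 0), with exact Poisson 95% intervals as bars, in 7 groups of hypoblast-gated nuclei ordered on the x axis from a KIT/VWF/A2M excess of 6 or more UMIs (left) through ties to a GATA4/NID1/COL18A1 excess of 6 or more (right). RSPO3, EPB41L4A and TMEM132D are highest on the right, FCHSD2 and RAB7B on the left, and COL4A1 stays between 385 and 466.

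JAM2, a junctional adhesion molecule, marked a few of the 128 nuclei and not the group. It gave 46 UMIs in 11 nuclei, 18 of them in 1 nucleus, or 42.1 CPM (30.8 to 56.1), against 5 UMIs in 5 nuclei of the KIT/VWF/A2M side, 8 in 3 epiblast-gated nuclei and 1 in trophectoderm-gated nuclei. After thinning, 7.03% of the 128 nuclei held JAM2 against 0.602% of the KIT/VWF/A2M side. Of the 11 nuclei, 9 had a margin of 6 or more UMIs, out of 36 such nuclei, and 7 held a GATA4 UMI. They were deeper, with a median of 10299 UMIs against 7818 in the other 117. JAM2 stood at 0, 14.9 and 84.8 CPM in nuclei of the 128 with under 6000, 6000 to under 10000, and 10000 or more UMIs.

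The 11 nuclei, singled out after the values were seen, differed from the other 117 in more than JAM2. RFC1, the large subunit of the clamp loader of DNA replication, stood at 1735 (1498 to 1998) against 359 (323 to 398) CPM, and was seen in all 11. EPB41L4A stood at 867 against 241, ABTB2 at 623 against 170, DNMT3B at 551 against 119, GCLC, an enzyme of glutathione synthesis, at 416 against 86.4, SSBP2 at 325 against 41.7 and TSPAN2 at 280 against 46.8. A single nucleus gave 15 of the 36 SSBP2 and 17 of the 46 GCLC UMIs of the 11. GATA4, which the rule used, stood at 136 (75.8 to 224) against 30.5 (20.6 to 43.6). SOX17 gave 7 of its 21 UMIs in 4 of these nuclei. COL4A1 stood at 388 against 435 and COL4A2 at 497 against 374, each with overlapping intervals. FN1 was higher in the 11 at 6550 (6082 to 7044) against 3686 (3567 to 3808), with 176 of its 725 UMIs there in 1 nucleus. GATA6 stood at 1545 (1322 to 1795) against 900 (842 to 961), and FGFR2 at 262 (175 to 376) against 95.6 (77.3 to 117).

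Other genes were low in the 11. FCHSD2 stood at 63.2 against 292 CPM, PLCB1 at 81.3 against 271, ARHGAP15 gave 1 UMI against 169, and CNTNAP2 gave 0 of its 210 UMIs there. The 11 nuclei held 10.1% of the UMIs of the 128 but 35.2% of the RFC1, 40.3% of the TSPAN2, 34.3% of the DNMT3B and 46.8% of the SSBP2 UMIs. Of the 19 genes at least 2-fold higher than on the KIT/VWF/A2M side, 11 stayed past 2-fold without these nuclei; RFC1 then had a log2 ratio of 0.53, DNMT3B 0.80, TSPAN2 0.81 and ABTB2 0.81. CDH2 and EPB41L4A were also under 2-fold then, at 0.98 and 0.99. RSPO3, NR5A2 and UNC5C stood at 1.14, 1.29 and 1.13.

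**Figure D5:**
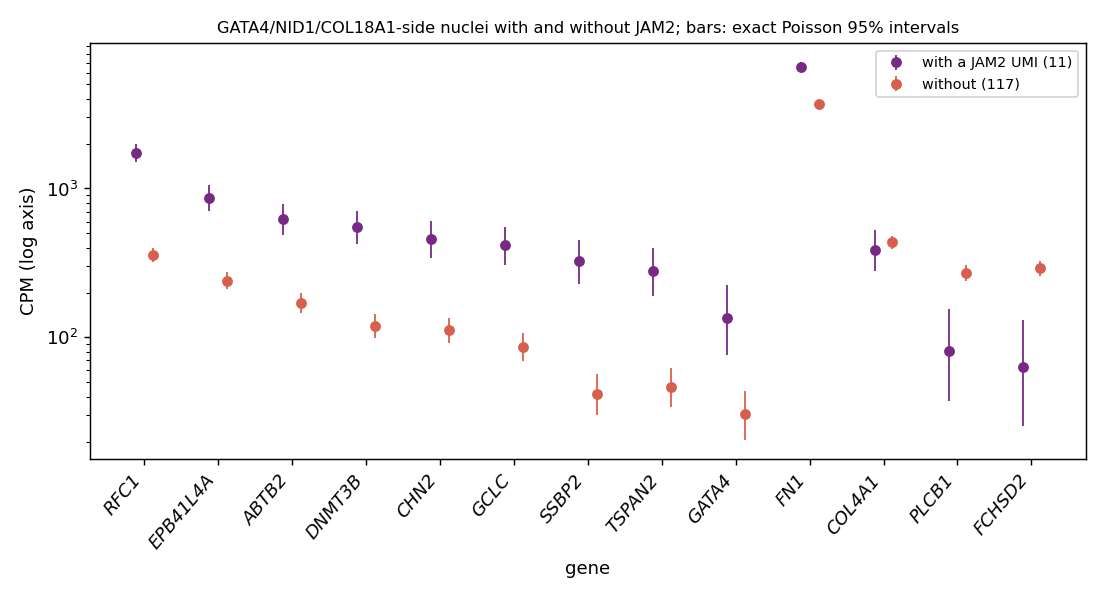
Levels of 13 genes in CPM (log y axis) with exact Poisson 95% intervals, in the 11 nuclei of the GATA4/NID1/COL18A1 side with a JAM2 UMI (purple) and the other 117 (orange). RFC1 stands at 1735 against 359, FN1 at 6550 against 3686 and FCHSD2 at 63.2 against 292, and the COL4A1 intervals overlap.

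Of 1957 blastoid barcodes, 288 passed the filters, against 693 of 944 blastocyst barcodes. Few of the 288 met the same rule: 8 did (2.78%, 1.21 to 5.40), and 2 met the rule of the KIT/VWF/A2M side. Blastoid barcodes that failed the filters were not examined for the rule. The 8 nuclei held 119802 UMIs with a median of 14206. They gave 71 HNF4A UMIs (593 CPM, 463 to 748), against 0.72 CPM in the other filtered blastoid nuclei, and 30 GATA4 UMIs (250.4, 169 to 357) against 1.43; the rule used both genes, so these values describe the choice. FN1 stood at 3122 against 100.4 CPM, with 127 of 374 UMIs in 1 nucleus, and COL4A1 at 242 against 81.8.

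Side by side with the 128 blastocyst nuclei, the values differed in places, and library and sample cannot be told apart. NID1 stood at 33.4 (9.10 to 85.5) in the 8 blastoid nuclei and 779 in the blastocyst nuclei, and COL18A1 at 184 and 238.6. GATA4 stood at 250.4 and 41.1. The rule used these 3 genes in both, so their values describe the choice. RSPO3 gave 1 UMI and JAM2, SOX17 and MTTP gave 0, a count that allows up to 30.8 CPM at this depth. TMEM132D stood at 16.7 (2.02 to 60.3) in the 8 nuclei and 4470 in the blastocyst nuclei, and LAMA1 at 175 (109 to 268) and 12.8. FGF10 stood at 334 with 22 of 40 UMIs in 1 nucleus, and LIPC, hepatic lipase, at 1436 with 121 of 172 UMIs in 1 nucleus, where the blastocyst nuclei gave 0.91 and 27.4.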

How the data were processed

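Single-nucleus RNA was measured in 1 blastocyst library and 1 blastoid library. The deposited matrices hold raw UMI counts per gene and barcode, which the authors made with a Cell Ranger whose version the file headers give as 7.2.0; the submitters' processing notes name Cell Ranger 7.1.0 and Seurat 4.3.0. The genome build, annotation and cell calling are not given in the sources used here. Counts were summed over each class and scaled to CPM with numpy 2.4.6, scipy 1.17.1 and pandas 2.3.3. Intervals are exact at 95% (Poisson for levels, conditional for ratios, Clopper-Pearson for shares) and cover counting error only. Features without a unique symbol held 15.0% of the UMIs of the 128 nuclei and were left out of gene comparisons but kept in the totals. Genes were compared with at least 100 UMIs in the 2 sums, outside the 12 rule genes and 13 mitochondrial mRNAs, and were counted at 2-fold. Sums under 3 UMIs were set to 3 for ratios. No doublets were removed; Scrublet scores in scanpy 1.11.5 served as an alternative. The ratio procedure was tested on simulated Poisson counts of 2 sums, which leave out the spread between nuclei. Named genes are those of 21 lists and, per comparison, the 10 highest and 10 lowest ratios at 50 or more CPM in the higher sum; RFC1, ARHGAP15, SSBP2 and GCLC were named after their values were seen. Of 477 listed genes, 8 had no matching symbol and are not analysed here; a few named genes are not reported here. The members and lists were chosen with earlier results of these data known. Alternatives were other UMI minimums, gates, margins, thinning to 4000 UMIs, weights, scalings and count minimums.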

Additional observations from a re-analysis of the deposited data

How the results depend on the processing

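The number of nuclei that met the rule lay between 86 (an excess of at least 2 UMIs) and 146 (thinned to 4000 UMIs first) under the alternatives run. Counts of genes past 2-fold followed the count minimum: against all other barcodes 256 were higher and 907 lower at 30 or more UMIs, and 36 and 262 at 300 or more. Against the KIT/VWF/A2M side they were 132 and 133 at 30 or more UMIs and 8 and 7 at 300 or more. Thinning before the rule left 12 higher and 15 lower there, and leaving out the JAM2 nuclei, an alternative added after seeing the data, left 11 and 17. Fewer genes or nuclei enter each stricter setting. The number of genes tested changes with the count minimum and is not reported here for these settings, so the counts cannot be read as shares. Against the same side the median log2 ratio of the trophectoderm list was 0.27, and -0.15 with an excess of at least 2 UMIs and -0.16 after thinning; that of the matrix receptors was -0.11, and -0.26 both after thinning and without the JAM2 nuclei. CHRM3 turned to 0.92 when HNF4A and PDGFRA needed 4 UMIs; the cause was not tested. Among the gene ratios recomputed, 862 moved little, 57 moved more and 1 reversed. No paired analysis was possible because each group has 1 library. Depth limits sparse genes: GATA4, SOX17 and JAM2 rest on 21 to 46 UMIs.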
